A study of Mus musculus with 4 samples.

Results

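The 10 genes described here encode the elastic fibre and the fibrillin microfibril on which it is built: Eln, Fbn1, Fbn2, Fbln1, Fbln2, Fbln5, Efemp2, Mfap4, Mfap5 and Emilin1. They were found by gene name among the 47643 genes of the authors' comparison table, and all 10 were listed. RNA came from periosteal cells of intact mouse femora, the membrane on the outer surface of bone. The mice were double heterozygous, with Cre-ERT2 at the Sox9 locus (Sox9tm1(cre/ERT2)Haak) and a CAG-driven TdTomato reporter at the Rosa26 locus (Gt(ROSA)26Sortm14(CAG-tdTomato)Hze), so a cell expressing Sox9 while tamoxifen was present, and its progeny, became red. Every animal of both groups received tamoxifen, as 3 doses of 100 µL at 20 mg/mL given 48 h apart, and bones were taken 2 weeks later. The cells were released with liberase and sorted into a TdTomato-positive and a TdTomato-negative group, with 2 libraries in each group from 2 collections. Both groups therefore shared genotype and treatment and differed by the sort gate, and the negative group was every other cell released from the bone surface. About 10000 cells per population were pooled from 18 femora of 9 mice, so the libraries do not measure differences between mice.

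Elastic fibres give tissues recoil. Cells secrete fibrillins, which assemble into microfibrils, and tropoelastin, the product of Eln, is laid onto this scaffold with the help of fibulins and crosslinked by lysyl oxidases. Fibroblasts, smooth muscle cells and other mesenchymal cells are the usual makers, and the outer fibrous layer of the periosteum contains elastic fibres.

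The table gives summaries per group, from which the 4 library values of each gene were worked out. Levels are RPKM, the reads per kilobase of the gene's genomic span and per 1 M reads, and libraries are named by group and by the depth that the values imply. P32 and P42 are the TdTomato-positive libraries, of 32.0 M and 41.6 M reads, and N17 and N74 are the TdTomato-negative libraries, of 17.0 M and 74.0 M reads. All 10 genes had at least 10 reads in 2 or more libraries. For 7 of them both groups' values could be assigned to libraries. For Fbn1, Mfap4 and Emilin1 the pair of positive values could not be, and the assignment with the smaller difference is printed. For Eln, Fbln1, Fbln2 and Mfap5 the assignment of the positive pair rests on 1 of its values being a whole number of reads. A log2 fold is the difference of the group means of log2(RPKM + 0.1), where 0.1 is the offset the authors' values carry. It understates the change of low genes, and it does not depend on the assignment.

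The composition of the libraries differed within and between the groups. Summed over the 6 fibroblast and periosteum markers (Col1a1, Col1a2, Postn, Pdgfra, Prrx1 and Dcn), the level per kilobase of exon was 5582 RPKM in P32, 930 in P42, 1064 in N17 and 2.23 in N74. The positive values of Col1a1, Col1a2, Dcn and Prrx1 could not be assigned, and under the other assignment the sums are 612 in P32 and 7401 in P42. The order of the positive libraries is therefore not known for this list, while N74 is the lowest either way. The 6 leukocyte markers (Ptprc, Laptm5, Coro1a, Lcp1, Cd52 and Cd53) summed to 298, 516, 602 and 1470 RPKM in the same order of libraries, or to 141, 721, 462 and 2081 RPKM with the unassigned pairs exchanged, so N74 was the highest either way. The 7 smooth muscle and pericyte markers, another usual source of elastin, summed to 94.1, 43.3, 70.1 and 8.22 RPKM, with Cnn1 at 0 in P42 and Cspg4 at 0 in N74. Acta2 among them was unassigned in positive cells, and exchanging its values gives 55.9 in P32 and 93.1 in P42. The 3 tendon markers, all assigned, summed to 965, 222, 235 and 0.302 RPKM. Osteoblast markers summed to 3737, 1545, 225 and 6.94 RPKM (1569, 4368, 56.8 and 742 with unassigned pairs exchanged). Chondrocyte markers (Col2a1, Acan, Col9a1 and Matn3) summed to 329, 271, 1.89 and 0.00998 RPKM, or 193 in P32 and 448 in P42 when exchanged. Neutrophil markers (S100a8, S100a9, Ngp, Ltf, Camp and Mmp8) summed to 25055, 20582.5, 29178 and 70291 RPKM. Exchanged, these were 9800, 40445, 19226 and 113678 RPKM, above the fibroblast sum in every library either way. Skeletal muscle markers summed to 443, 238, 618 and 4.56 RPKM, but an unassigned Acta1 pair would put 1710 RPKM in N74. Erythroid markers were highest in N74 either way, at 91065 RPKM or more against at most 22435 in P42, and genes held 99.4% of the depth of N74, against 66.8% to 81.3% in the other libraries. No leukocyte or fibroblast marker was at 0 in any library. The part that these differences play in the values below was not tested, and fewer cells of a type cannot be told apart from less RNA per cell.

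All 10 genes had a log2 fold above 0, against 54% of the 17117 genes with at least 10 reads in 2 libraries. The folds ran from 0.43 for Fbn2 to 4.57 for Mfap4, with a median of 1.78, beside a median of 0.06 over those 17117 genes. At least 1 on this scale was reached by 8 of the 10, against 14.4% of those genes. None of the 10 passed the authors' test: in the authors' deposited table every one of them had an FDR of 1.00, and over all genes 0.0063% were called higher (3 of 47643) and 0 lower. Mfap4 and Efemp2 had an unadjusted p under 0.05 in the authors' deposited table. In the higher direction 1.58% of the 17117 genes did so, and 0.598% of all listed genes. Over the 10 genes the p-values in that table ranked exactly as the folds did, whatever the spread between libraries. In 2 of the 10, Efemp2 and Fbn2, both of them assigned, P32 and P42 exceeded N17 and N74, against 16.1% of the 17117 genes. A gene with an unassigned pair was counted here only if this held under either assignment. With 2 libraries per group, an exact two-sided permutation test cannot give a p below 0.333.

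**Figure D1:**
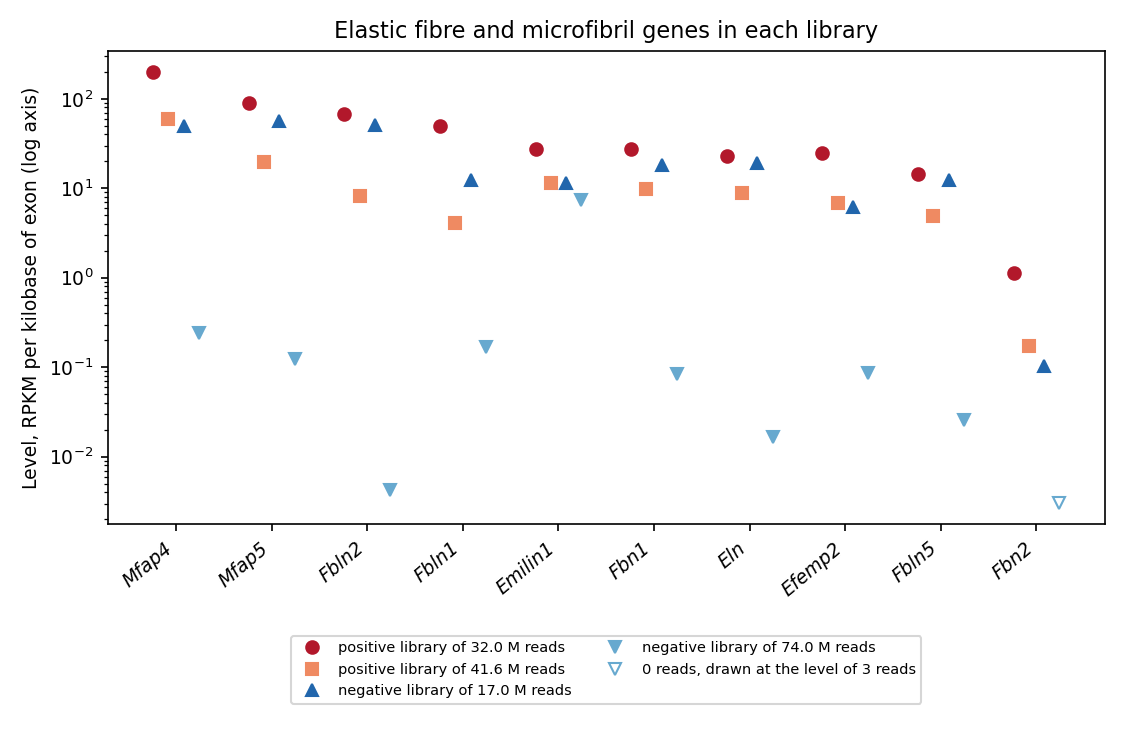
Level of each gene in the 4 libraries, in RPKM per kilobase of exon on a log axis, with genes ordered by their mean level. Circles and squares are the positive libraries and triangles the negative ones; the open triangle is Fbn2 at 0 reads, drawn at the level of 3 reads. For 9 genes the negative library of 74.0 M reads (N74) lies far below the other 3, and for Emilin1 it lies close to them. Positive values of Mfap4, Emilin1 and Fbn1 are drawn under the assignment with the smaller difference.

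Eln (ENSMUSG00000029675.12; mm10, chromosome 5, 134702593 to 134747323) encodes tropoelastin, the elastic core. It was read at 4.10 RPKM in P32, 1.60 in P42, 3.47 in N17 and 0.00302 in N74. These levels rest on 5866, 2974, 2638 and 10 reads. The groups overlapped: N17 lay between the positive libraries, and the other negative library had almost no Eln. The log2 fold was 2.14, with a standard deviation of 0.92 between the positive and 3.62 between the negative libraries. The p in the authors' deposited table was 0.140.

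Of the fibrillins, which form the backbone of the microfibril, Fbn1 (ENSMUSG00000027204.13; chromosome 2, 125300594 to 125507993) was the abundant form. Its level was 1.60 and 0.570 RPKM in positive cells and 1.06 and 0.00495 RPKM in negative cells. The positive values would be 0.414 and 2.11 RPKM under the other assignment, and under either N17 lay between them. The 76 Fbn1 reads in N74 compare with 3718 in the other negative library. Its log2 fold was 1.61 (p of 0.272 in the authors' deposited table).

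Fbn2 (ENSMUSG00000024598.8; chromosome 18, 58008623 to 58209926), the fibrillin best known from developing tissue, was the least abundant of the 10 genes. It had 474 reads in P32, 94 in P42, 23 in N17 and 0 in N74, or 0.0737, 0.0112, 0.00673 and 0 RPKM. The count of 0 allows a level of up to 0.000201 RPKM, the worth of 3 reads in that library. P32 and P42 both exceeded N17 and N74. The log2 fold was only 0.43, because all 4 levels lie below the offset of 0.1. The ratio of the group mean levels was 12.6, the highest of the 10 genes, and the p in the authors' deposited table was 0.790.

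Per kilobase of exon, Fbn2 stood at 0.0412 times the Fbn1 level in P32, at 0.0175 times in P42 and at 0.00568 times in N17. The first 2 of these ratios use the assignment printed for Fbn1.

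Mfap4 and Mfap5 encode microfibril-associated glycoproteins: MFAP4 binds elastin and fibrillin, and MFAP5 (also called MAGP-2) binds fibrillin. Mfap4 (ENSMUSG00000042436.12; chromosome 11, 61485431 to 61488900) had the highest mean level of the 10 genes, although Emilin1 exceeded it in N74. Mfap4 stood at 109.5 RPKM in P32, 32.6 in P42, 27.3 in N17 and 0.133 in N74. These values correspond to 12142, 4700, 1608 and 34 reads. As printed, P32 and P42 exceeded N17 and N74, but under the other assignment the positive values become 24.98 and 143 RPKM and the groups overlap. Under the printed assignment 3 of the 10 genes were separated in this way, against 22.3% of the 17117 genes.

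The log2 fold of Mfap4 was 4.57, the largest of the 10, with a standard deviation of 1.24 between the positive and 4.86 between the negative libraries. Its p of 0.00215 in the authors' deposited table was undercut by 0.109% of the 47643 listed genes, of which 26436 had reads. Exons of Mapk7 overlap Mfap4 on the other strand, and whether reads were counted by strand is not given in the sources used here. Mapk7 had 1180, 685, 484 and 3386 reads, highest in the library where Mfap4 was lowest.

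Mfap5 (ENSMUSG00000030116.14; chromosome 6, 122505845 to 122529290) was read at 13.6 and 3.00 RPKM in positive cells and at 8.53 and 0.0190 RPKM in negative cells. Its groups overlapped in the same way as those of Eln, with N17 between the positive ones. Mfap5 had a log2 fold of 2.68 (p of 0.0645 in the authors' deposited table). Mfap5 was the most abundant of the 10 genes per kilobase of exon in N17, at 55.7 RPKM, whereas Mfap4 led in P42, at 58.8 RPKM or, under the other assignment, 257. In P32 Mfap4 led at 198 RPKM as printed, but under the other assignment it would be at 45.1 RPKM, below Mfap5 at 88.6.

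Efemp2 (ENSMUSG00000024909.14; chromosome 19, 5473973 to 5481853) encodes fibulin-4, which binds lysyl oxidase and is needed for elastin crosslinking. It was read at 11.9 and 3.29 RPKM in positive cells and at 2.95 and 0.0412 RPKM in negative cells, from 3006, 1080, 394 and 24 reads. P32 and P42 thus exceeded N17 and N74, though 3.29 and 2.95 RPKM are close. This order rests on the assignment of the positive pair by whole reads. Exchanged, its values would be 2.51 and 15.6 RPKM, with N17 between them. Efemp2 had a log2 fold of 3.29 (p of 0.0240 in the authors' deposited table). Mus81 overlaps exons of Efemp2 on the other strand and had 629, 643, 306 and 677 reads.

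Fbln1 (ENSMUSG00000006369.14; chromosome 15, 85205949 to 85286535) encodes fibulin-1, a component of the elastic core and of basement membranes. It varied most between the positive libraries, at 2.70 and 0.220 RPKM, a ratio of 12.3 with 6955 and 738 reads. The negative libraries had 0.664 and 0.00905 RPKM, and the higher of these lay between the positive values. Fbln1 had a log2 fold of 1.71 (p of 0.241 in the authors' deposited table).

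Fbln2 (ENSMUSG00000064080.12; chromosome 6, 91212455 to 91272540), encoding fibulin-2, a larger relative found at the edge of elastic lamellae and in basement membranes, stood at 7.20 and 0.868 RPKM in positive cells and at 5.38 and 0.000450 RPKM in negative cells. The last value is 2 reads, against 5492 reads in the other negative library. No other gene of the 10 with reads in both negative libraries differed more between them. On the log2 scale the fold was 1.84 (p of 0.206 in the authors' deposited table).

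Fbln5 (ENSMUSG00000021186.8; chromosome 12, 101746565 to 101819055) encodes fibulin-5, which tethers tropoelastin to the microfibril and to cell surface integrins. Its levels were 1.37 and 0.471 RPKM in positive cells and 1.17 and 0.00242 RPKM in negative cells, again with a negative library between the positive ones. The log2 fold was 1.34 (p of 0.360 in the authors' deposited table). Fbln5 kept close to Eln in 3 libraries: per kilobase of exon it stood at 0.633, 0.559 and 0.639 times the Eln level in P32, P42 and N17, and at 1.52 times in N74, where it had 13 reads and Eln 10.

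Emilin1 (ENSMUSG00000029163.9; chromosome 5, 30913402 to 30921277) encodes a glycoprotein at the interface of elastin and microfibrils. It departed from the other 9 genes. Its levels were 17.1 and 7.09 RPKM in positive cells and 7.18 and 4.66 RPKM in negative cells, and the positive values would be 5.42 and 22.3 RPKM under the other assignment. N17 lay between the positive libraries either way, though as printed 7.18 and 7.09 RPKM are close.

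N74 held 2717 Emilin1 reads, and the level there was 64.9% of that in the other negative library. For the other 9 genes this share was at most 1.40%. The log2 fold of Emilin1 was 0.92 (p of 0.546 in the authors' deposited table). Emilin1 made up 7.44 of the 8.18 RPKM of exon that the 10 genes summed to in that library, where the leukocyte markers were highest and the fibroblast markers lowest. The 10 genes summed to 522 RPKM in P32, 132 in P42 and 235 in N17. With the other assignment of Mfap4, Emilin1 and Fbn1 the positive sums are 330 in P32 and 382 in P42, both above N17.

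Some features recurred across the genes. Of the 7 assigned genes, all had a level in N74 under 2% of that in the other negative library, a pattern found in 9.81% of the 12372 assigned genes with at least 10 reads in 2 libraries. The negative pair was assigned for all 10 genes, and among these Emilin1 was the exception, at 64.9%. The descending order P32, N17, P42, N74 was seen in 5 of the 7 assigned genes, against 9.93% of the assigned genes. The exceptions were Efemp2 and Fbn2. N17 lay between the positive libraries, under either assignment, for the 7 genes Eln, Fbn1, Fbln1, Fbln2, Fbln5, Mfap5 and Emilin1, for Emilin1 only narrowly as printed. How many of all genes were so placed was not counted, so this cannot be called unusual. The median level of the 10 genes was 5.65 RPKM in P32, 1.23 in P42, 3.21 in N17 and 0.00700 in N74, and under the other assignment 4.76 in P32 and 1.85 in P42.

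**Figure D2:**
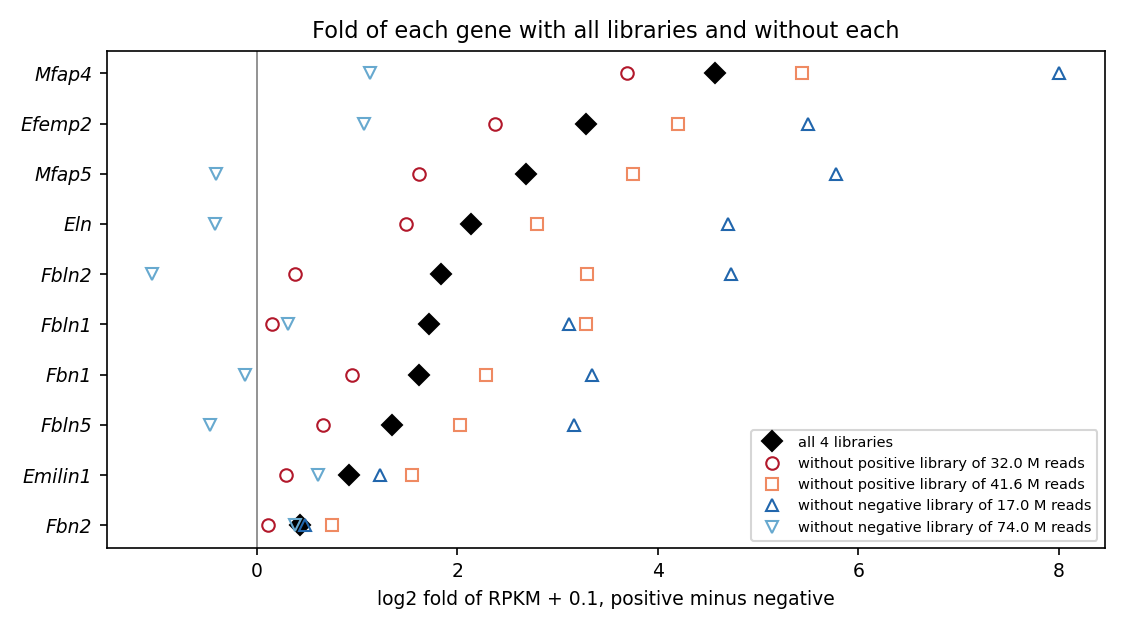
Log2 fold of each gene, positive minus negative, on log2(RPKM + 0.1), with all 4 libraries (diamonds) and with each library left out (open symbols). Without N74 (the negative library of 74.0 M reads), 5 of the 10 genes lie below 0; with any other library left out, all 10 stay above it under the assignment drawn.

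The size of most folds, and the sign of 5 of the 10, turned on N74. Without it the median of the 10 genes was 0.10, beside 0.12 over the 17117 genes, and 5 genes were above 0. The folds were then 1.13 for Mfap4, 1.07 for Efemp2, 0.61 for Emilin1, 0.38 for Fbn2 and 0.31 for Fbln1. They were -0.12 for Fbn1, -0.41 for Mfap5, -0.42 for Eln, -0.47 for Fbln5 and -1.05 for Fbln2. Leaving out P32 gave a median of 0.80, leaving out P42 gave 3.04, and leaving out N17 gave 4.02. In each of these 3 cases all 10 genes stayed above 0 as printed, while the median over the 17117 genes lay between -0.03 and 0.14. Under the other assignment of Fbn1, Mfap4 and Emilin1, the median without P32 was 1.55, and Emilin1 was at -0.09 without P42.

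How the libraries were averaged also mattered. By the mean RPKM of each group, all 10 genes were higher in positive cells, by ratios from 1.498 for Fbln2 to 12.6 for Fbn2. The ratio of group means in the authors' deposited table carries a second division by depth, which gives the shallow library N17 more weight. There 5 genes had a ratio under 1 together with a log estimate above 0: Fbln2 at 0.776, Fbln5 at 0.784, Eln at 0.813, Mfap5 at 0.984 and Fbn1 at 0.995. That pairing was found in 16.1% of the 17117 genes. The other 5 ratios in the authors' deposited table were 1.06 for Fbn2, 1.44 for Emilin1, 2.05 for Fbln1, 2.53 for Efemp2 and 2.61 for Mfap4.

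On the scale of the deposited group means, each multiplied by the span of the gene, Mfap4 had 2108 in positive and 809 in negative cells, and Efemp2 229 and 90.6. Eln had 86.2 and 106 on that scale, and Fbln2 126 and 162. These products keep the second division by depth, so they order the groups for Eln and Fbln2 the other way from the mean RPKM.

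**Figure D3:**
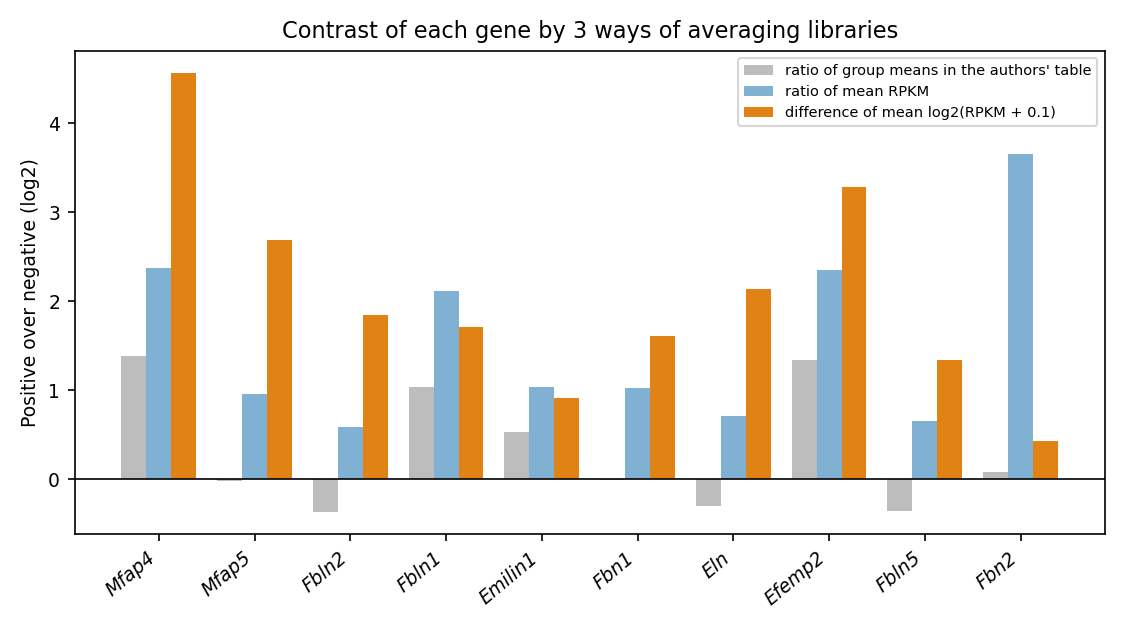
Positive over negative for each gene on a log2 axis, by 3 ways of averaging: the ratio of group means in the authors' table (grey), the ratio of mean RPKM (blue) and the difference of mean log2(RPKM + 0.1) (orange). Bars start at 0. The orange and blue bars are above 0 for all 10 genes, and the grey bars are below 0 for Fbln2, Fbln5, Eln, Mfap5 and Fbn1.

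Ranked by mean level per kilobase of exon, Mfap4 stood first at 76.5 RPKM, followed by Mfap5 at 41.0, Fbln2 at 31.7 and Fbln1 at 16.6 RPKM. Emilin1 at 14.4, Fbn1 at 13.8 and Eln at 12.7 RPKM followed, then Efemp2 at 9.48, Fbln5 at 7.90 and Fbn2 at 0.349 RPKM. The spread between libraries was wider than the steps between neighbours throughout this order down to Fbln5, while Fbn2 was the lowest in each of the 4 libraries. Mfap4, Fbln5 and Fbn2 held the same rank per kilobase of genomic span, and the other 7 did not.

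Shares of the summed fibroblast and periosteum markers, per kilobase of exon, are free of the assignment only in the negative libraries. In positive cells 4 of the 6 markers were unassigned. Eln stood at 1.80% of the marker sum in N17 and at 0.749% in N74, and Fbln2 at 4.77% and 0.191%. Mfap5 stood at 5.24% and 5.58%, nearly the same share in both. The N74 shares are imprecise, since they rest on 10 Eln, 2 Fbln2 and 33 Mfap5 reads. Emilin1 stood at 1.08% in N17 and at 334% in N74, where the marker sum is 2.23 RPKM. In positive cells the share of Eln lay between 0.406% and 3.71% in P32 and between 0.119% and 0.949% in P42, over all assignments of the markers. For Mfap5 these ranges were 1.59% to 14.5% and 0.265% to 2.11%, and for Fbln2 1.22% to 11.1% and 0.111% to 0.880%. No order between the groups can be read from the P32 shares of these 3 genes, whose ranges include at least 1 negative value. In P42 the range of Mfap5 lay below both negative values, and those of Eln and Fbln2 included the N74 value.

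RefSeq start regions (GRCm38.p6) were matched for 6 of the 10 genes and not for Eln, Fbn2, Mfap4 and Mfap5. The 250 bases before a start are shown for the 3 genes with a window free of annotated exons. Separation between the groups played no part in this choice. Capitals mark GGGCGG (the GC box) and CAGAC (a Smad-binding element), searched on both strands, so CCGCCC and GTCTG are their reverse complements.
Efemp2, chr19:5473696-5473945, plus strand: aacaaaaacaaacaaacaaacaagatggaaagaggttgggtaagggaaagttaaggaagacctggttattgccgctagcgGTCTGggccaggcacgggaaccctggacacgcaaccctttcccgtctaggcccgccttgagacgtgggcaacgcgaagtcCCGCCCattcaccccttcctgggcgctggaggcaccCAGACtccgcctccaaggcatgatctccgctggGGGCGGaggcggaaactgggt
Fbln1, chr15:85205699-85205948, plus strand: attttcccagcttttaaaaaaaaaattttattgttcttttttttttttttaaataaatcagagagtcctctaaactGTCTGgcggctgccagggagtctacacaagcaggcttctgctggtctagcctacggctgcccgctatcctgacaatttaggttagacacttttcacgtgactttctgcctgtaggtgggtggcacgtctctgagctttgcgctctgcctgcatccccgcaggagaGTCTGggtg
Fbln5, chr12:101819120-101819369, minus strand: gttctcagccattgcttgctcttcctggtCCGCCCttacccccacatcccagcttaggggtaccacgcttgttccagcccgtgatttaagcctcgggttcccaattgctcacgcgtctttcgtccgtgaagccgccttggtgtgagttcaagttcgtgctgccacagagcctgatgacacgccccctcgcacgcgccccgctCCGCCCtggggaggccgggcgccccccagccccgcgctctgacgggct

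Over the 10 windows of the 6 genes, GGGCGG was found in 7 and CAGAC in 5, against 32.7% and 42.2% of all 32851 windows of the same length. The 10 windows are not independent: Efemp2 has 3, Fbln1 2 and Fbln5 2, and 2 pairs of neighbours of 1 gene overlap. The GC content of 8 of the 10 was above the median of all windows, 52.4%. By gene, 5 of the 6 had GGGCGG in a window and 4 had CAGAC. Efemp2 has both motifs in the window shown, Fbln1 has CAGAC and Fbln5 has GGGCGG. The TATA box TATAAA, the AP-1 site TGANTCA, the TEAD site GGAATG, the RUNX site TGTGGT, the Sox site ACAAAG and the ETS site CCGGAA were in 0 of the 10, against 12.4%, 6.75%, 12.6%, 14%, 16.5% and 12% of all windows.

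Genes of the same pathway were read from 3 further lists. Among the 17117 genes, 54% had a log2 fold above 0, with a median of 0.06. An unadjusted p under 0.05 in the higher direction was found for 1.58% of them in the authors' deposited table. Of 11 other fibre components, 9 had a log2 fold above 0 and 2 below it, with a median of 1.10. None was called in the authors' deposited table, and 3 had an unadjusted p under 0.05 there, Mfap2, Ltbp4 and Fbln7, all higher in positive cells. Mfap2, the other MAGP, was read at 27.5 and 6.52 RPKM in positive cells and at 7.85 and 0 RPKM in negative cells. Ltbp4, which binds latent TGF-beta and helps elastin assembly, was read at 30.5 and 6.29 RPKM in positive cells and at 14.8 and 0.0701 RPKM in negative cells. Fbln7, named after its value was seen, was read at 4.24, 1.84, 0.858 and 0 RPKM in the same order, and Ltbp3 at 11.8, 1.99, 3.56 and 0.0667 RPKM. The positive values of Ltbp4, Fbln7 and Ltbp3 could not be assigned to libraries and are printed like those of Fbn1.

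Emilin2, a relative of Emilin1, ran the other way from most of the list. It was read at 0.784 and 1.58 RPKM in positive cells and at 2.49 and 5.26 RPKM in negative cells, with P32 and P42 below N17 and N74 (13.8% of the 17117 genes were so placed under either assignment). Its log2 fold was -1.61 (p of 0.245 in the authors' deposited table). In N74 the levels were 7.44 RPKM of exon for Emilin1 and 56.2 RPKM for Emilin2.

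Of 14 crosslinking and assembly genes, 11 were above 0 (54% of the 17117 genes were) and 3 below, with a median of 1.10. Lox, the lysyl oxidase that crosslinks elastin and collagen, was read at 14.8 and 3.18 RPKM in positive cells and at 5.40 and 0.000979 RPKM in negative cells, and it alone of the list had a p under 0.05 in the authors' deposited table (0.0261). Loxl1, a related oxidase, was read at 9.66, 1.32, 3.56 and 0.0101 RPKM, and Adamtsl4 at 7.04, 1.54, 3.92 and 0.490 RPKM. Lox and Loxl1 had the same order of libraries as Eln. Furin, a broadly expressed protease that cleaves profibrillin, was at 3.83, 4.12, 4.66 and 7.66 RPKM, lower in both positive libraries as printed. Its positive values could not be assigned, and they overlap the negative ones, at 3.14 and 5.01 RPKM, under the other assignment.

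Of the 10 elastin-degrading proteases, Mmp7 had 0 reads in every library. Of the 9 others, 6 were above 0 (54% of the 17117 genes were) and 3 below, with a median of 1.34. Mmp14, an activator of other matrix proteases, was at 69.5, 12.9, 17.6 and 0.239 RPKM and, with Ctsk and Mmp2 (named after their values were seen), had a p under 0.05 in the authors' deposited table in the higher direction. Mmp9, the gelatinase of neutrophils and osteoclasts, was at 4.05 and 9.78 RPKM in positive and 43.9 and 118 RPKM in negative cells, or 27.0 and 192 RPKM in negative cells under the other assignment. Its p in the authors' deposited table was 0.0154 in the lower direction, where 0.296% of all genes had a p under 0.05. Elane, neutrophil elastase, was at 46.3 and 785 RPKM in positive and 140 and 320 RPKM in negative cells, so its groups overlapped.

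**Figure D4:**
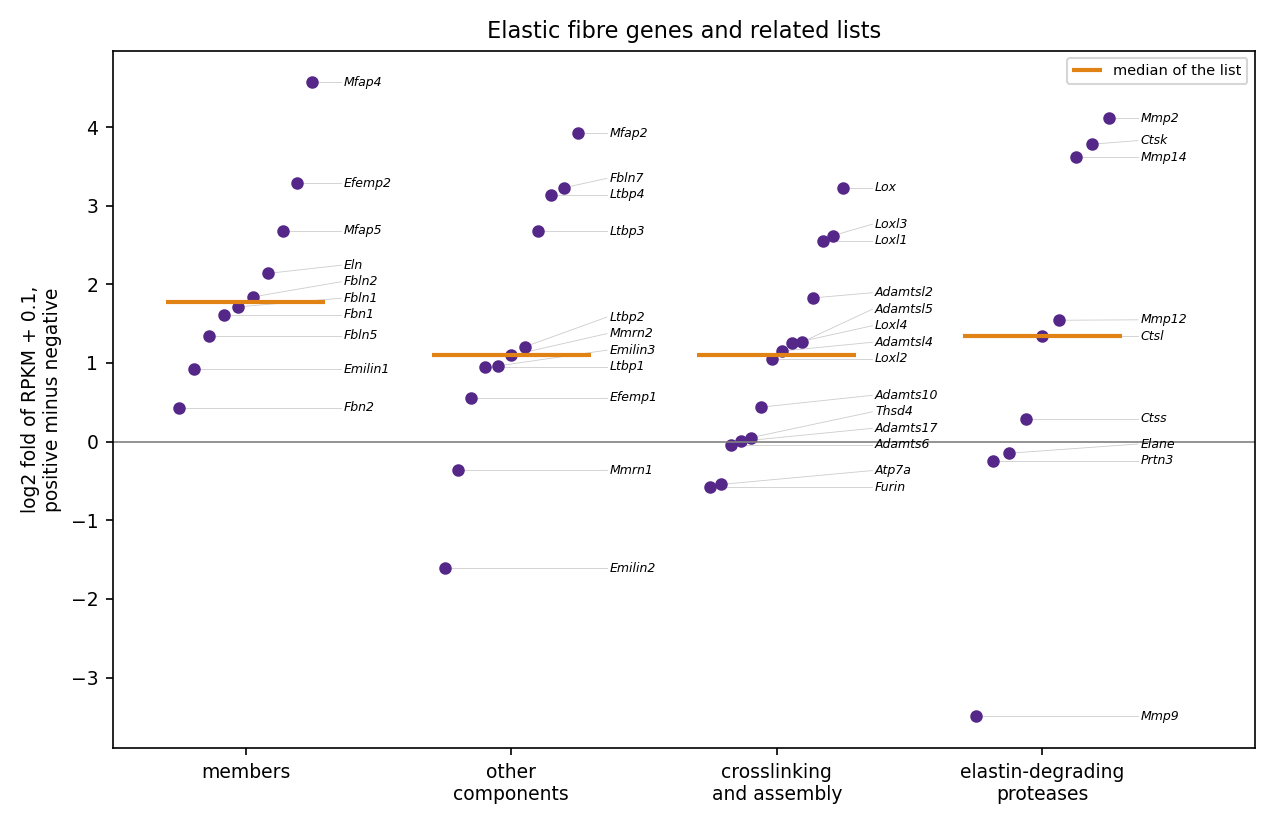
Log2 fold of RPKM + 0.1, positive minus negative, of each gene with at least 10 reads in 2 libraries, for the 10 elastic fibre and microfibril genes and 3 related lists. Horizontal bars are the medians, 1.78, 1.10, 1.10 and 1.34. All 10 members are above 0, and each other list has genes below it.

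The genes whose profile lay nearest to the median profile of the 7 assigned members, over 4 libraries and among 3847 assigned genes whose mean reached 1 RPKM, were Pthlh, Ssc5d, Plpp3, Loxl1 and Fam26e. Their distances, on log2(RPKM + 0.1) centred for each gene, were 0.199, 0.279, 0.318, 0.368 and 0.370. Pthlh, which encodes parathyroid hormone-related protein, was read at 7.91 and 1.23 RPKM in positive cells and at 3.39 and 0.0257 RPKM in negative cells. Of the members, Eln was the nearest to their own median profile, at 0.853, and 55 of the 3847 genes lay nearer than it. Emilin1 and Fbn2 were the farthest, at 3.40 and 4.06, with 601 and 975 genes nearer. All 4 levels of Fbn2 lie below the offset of 0.1, which flattens its profile. These distances describe 4 libraries only.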

How the data were processed

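RNA from sorted cells was made into libraries with a SMARTer low-input kit and read as 75-nucleotide pairs, per the labels' protocols. The submitters' processing notes name STAR, Partek and the mm10 build, without versions. The authors deposited a table of 47643 genes and 29 columns with no column per library. Per the file headers it holds group means of a normalized signal, a ratio of these means, a signed fold change and other scores, a p-value with a step-up FDR, and a group difference on the natural log scale, from a lognormal model with shrinkage.

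With 2 libraries per group, the means, the maximum and the log estimate determine 4 values per gene, with exactly 1 solution for all 47643 genes. They matched RPKM plus 0.1, divided again by depth and span. Depths were read off genes without reads, given an offset fixed at 0.1. Depths, offset and scale stand in no header. A pair of values was assigned to libraries where the other assignment gave negative reads, or where reads came out whole (within 0.002 reads plus 5e-06 of the reads, at most 0.05). Where negative reads already decided, the whole-read rule was right for 9533 of 9534 positive and 26754 of 26788 negative pairs. Of the 17117 genes with at least 10 reads in 2 libraries, 12372 (72.3%) were assigned in both groups. For Eln, Fbln1, Fbln2 and Mfap5 the positive pair rests on 1 whole value. Collection numbers are not carried by these values. On simulated data, whose libraries shared the same mean profile apart from planted changes, the scripts recovered the values and changes put in. The libraries here differed far more within a group, so this checks the scripts and not what the comparison here could find.

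The main test is the authors' deposited p-value and FDR, two-sided, called at 0.05; limma 3.58.1 on log2(RPKM + 1), for genes with at least 1 RPKM in 2 libraries, is the alternative. Exon lengths and positions come from GENCODE M21. The members and lists were chosen with earlier results of these data known. All members are named, then at most the 4 genes of each related list with the highest mean level per span, any called, and the 5 nearest profiles. The libraries are pools of mice, so no p-value measures the spread between mice. The authors' p-values come from a model with shrinkage and did not follow each gene's own spread between libraries. Among the members they ranked as the log2 folds did, while the pooled standard deviation ran from 0.325 for Fbn2 to 3.55 for Mfap4.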

Additional observations from a re-analysis of the deposited data

How the results depend on the processing

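With limma on log2(RPKM + 1), 0 of 6860 genes were called in either direction, against 3 higher in the authors' deposited table; 425 higher and 237 lower had an unadjusted p under 0.05. The count was 0 in all 12 alternatives, including each library left out (0 to 0), and no member was called in any of those run on the members. The adjusted p of the 8 members tested ran from 0.507 to 0.825 (limma), and their median log2 fold was 0.81. Unadjusted, the p was 0.0993 for Mfap4 and 0.0914 for Efemp2 (limma). Fbn2 and Fbln1 fell under its filter. Over the limma fits that left out a library the median ran from -0.12 to 1.91, and on log2(RPKM + 0.1), added after seeing the data, from 0.10 to 4.02. With the 74.0 M negative library left out, the sign reversed for Eln (-0.30 by limma, -0.42 on log2(RPKM + 0.1)), Fbn1 (-0.027 and -0.12), Fbln2 (-0.71 and -1.05), Fbln5 (-0.22 and -0.47) and Mfap5 (-0.32 and -0.41), and by limma for the median (-0.12). With the 32.0 M positive library left out it reversed by limma for Fbln2 (-0.44) and Fbln5 (-0.00375). Emilin1 reversed to -0.092 with the 41.6 M positive library left out under its other assignment, on log2(RPKM + 0.1). The other 117 of 130 member values were above 0, but these values are not independent. Both block fits repeat the limma folds, and limma with 0.1 in place of 1 repeats the main folds. The cause of the reversals was not tested.

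The collections pair the libraries, but the values carry no collection number, so the replicate block was fitted both ways on 3918 assigned genes. Pairing the 32.0 M library with the 17.0 M one called 0 genes, with 595 higher and 413 lower at an unadjusted p under 0.05 (limma), and pairing it with the 74.0 M one called 0, with 52 and 42. The 5 members tested had a median of 0.78 under either block and without it. Each block pairs a positive with a negative library, so it cannot change a fold, and this match is no check. Without a block 177 were higher and 121 lower at that p. Only 10, 76, 2, 13, 24, 34, 33 and 54 reads of Eln, Fbn1, Fbln2, Fbln5, Efemp2, Mfap4, Mfap5 and Fbln1 stand behind the lowest levels.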
